A study of Mus musculus with 2 samples.

Results

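The genes described here are 9 genes that resting, naive and memory T cells are known to express: Tcf7, Lef1, Bach2, Satb1, Klf2, Id3, S1pr1, Il7r and Foxp1. They were chosen by symbol, and all 9 were found among the 33696 genes of the deposited count matrices. Their UMIs (unique molecular identifiers, each standing for 1 captured RNA molecule) were followed in CD8 T, CD4 T, Foxp3 T, NK and B cells of LLC tumours. LLC is Lewis lung carcinoma, a mouse lung tumour line. The tumours grew in mice lacking Dusp2 (Dusp2-/-, here KO) and in mice with Dusp2 intact (WT), and each genotype is 1 single-cell library of cells labelled as tumour-infiltrating lymphocytes. Dusp2 encodes a nuclear phosphatase of MAP kinases that is induced early after T-cell activation, and the series asks how it shapes immune cells in the tumour. The labels do not state the age, sex or strain of the mice, how many animals a library pools, whether cells were sorted, or which part of Dusp2 is deleted. The labels name the molecule as polyA RNA for KO and total RNA for WT.

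A T cell that has not met its antigen is kept small, long-lived and mobile by a shared set of regulators. TCF-1 (from Tcf7) and LEF-1 are DNA-binding partners of beta-catenin that are abundant in naive and memory T cells and are lost as effector cells differentiate. Klf2 drives the genes of lymph node homing and of exit from tissue, S1pr1 among them, and the interleukin 7 receptor carries the survival signal of resting cells. In tumours, Tcf7 also marks the less differentiated, self-renewing part of the exhausted CD8 T-cell pool.

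The KO library holds 12744 cell barcodes with 101532711 UMIs and the WT library 9890 with 113873249, at medians of 4754 UMIs per barcode in KO and 8496 in WT. The libraries share 31 barcodes. Cells were gated by raw UMIs of lineage genes that are not among the 9. The gates hold 649 KO and 424 WT CD8 T cells, 436 KO and 151 WT CD4 T cells, 137 KO and 131 WT Foxp3 T cells, 101 KO and 202 WT NK cells, and 3002 KO and 10 WT B cells. Median UMIs per cell in the T and NK gates lay between 4921.5 and 6515 in KO and between 4543 and 6023 in WT. Of markers not used for gating, all 8 T markers were detected in each T gate of both libraries and all 8 NK markers in the NK gates. In NK cells the T-cell receptor gene Trac was at 11.1 CPM in KO and 21.4 CPM in WT, and Cd5 at 0 in both. Dusp2 itself stood at 13.7 CPM in KO and 576 CPM in WT CD8 T cells, at 2.77 and 218 CPM in KO and WT CD4 T cells, and at 2.46 and 831 CPM in KO and WT NK cells. In Foxp3 T cells it had 0 UMIs in KO and 141 in WT.

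A level is given in CPM, the UMIs of a gene per 1000000 UMIs of all genes summed over the cells of a gate and library. A difference is given as log2 of the KO level over the WT level, and is above 0 where KO is higher. Ranges in brackets are 95% intervals for counting error only, exact Poisson for levels, exact conditional binomial for ratios and Clopper-Pearson for shares. With 1 library per genotype there is no replicate, no p-value can be given, and genotype cannot be told apart from animal, tumour and library preparation. Levels compare 1 gene across cells and libraries. They do not rank genes against each other, since 3' UMIs depend on each gene's own RNA end.

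Of the 9 genes, Lef1 and S1pr1 share mouse chromosome 3 and Bach2 and Id3 share chromosome 4, while the others lie on separate chromosomes. Coordinates are from GENCODE M21 on GRCm38, and no label states the annotation release behind the counts. Tcf7 is at chr11:52252371-52283014 on the minus strand and Lef1 at chr3:131110471-131224356 on the plus strand. Bach2 is at chr4:32238804-32586108 and Id3 at chr4:136143497-136145755, both on the plus strand. Satb1 is at chr17:51736187-51833290 on the minus strand and Klf2 at chr8:72319033-72321656 on the plus strand. S1pr1 is at chr3:115710433-115715072, Il7r at chr15:9505788-9530176 and Foxp1 at chr6:98925338-99522721, all on the minus strand. Tcf7, Lef1 and Bach2 each overlap 1 antisense gene that is also in the matrices (A630014C17Rik, Gm43352 and Bach2os). Bach2 and Foxp1 each share their strand with 1 further counted gene (Bach2it1 and Gm20705). No label states how strand was handled in counting, so UMIs in these overlaps may be split or lost.

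For Tcf7, a 3' count also hides which protein is made. Long Tcf7 transcripts begin with a stretch that encodes the beta-catenin-binding end of TCF-1, and short transcripts start downstream and lack it. Both kinds share the 3' exons that such a count reads. The 165 bases of coding sequence that open the long form, 55 codons with 0 stop codons in frame, are shown because no value below can tell whether they were present (RefSeq, GRCm38.p6, chr11:52283015-52283179, minus strand, 5′ to 3′; capitals mark the start codon). They lie directly upstream of the gene's 5′ end in GENCODE M21.
Tcf7 long-form 5′ coding end: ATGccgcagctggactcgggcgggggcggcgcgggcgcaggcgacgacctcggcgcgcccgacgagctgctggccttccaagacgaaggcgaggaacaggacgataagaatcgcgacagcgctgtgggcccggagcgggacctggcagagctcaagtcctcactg
Every Tcf7 level below is therefore the sum over long and short forms.

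Tcf7, Lef1 and Il7r stood lower in KO B cells than in any KO T gate. S1pr1 did too, at 42.5 CPM in KO B cells, but that is close to the 44.4 CPM of WT CD8 T cells and above the 16.5 CPM of WT Foxp3 T cells. In KO B cells Tcf7 stood at 3.40 CPM (2.64 to 4.31), Lef1 at 6.55 CPM (5.47 to 7.77) and Il7r at 5.50 CPM (4.52 to 6.63). Tcf7, Lef1 and Il7r had 0 UMIs in the 10 WT B cells, which allows up to 49.7 CPM for each. Bach2, a transcriptional repressor of both B and T cells, had its highest KO level in B cells, 1186 CPM, and Foxp1, a forkhead repressor, likewise, 1066 CPM. Id3, an inhibitor of E-protein transcription factors, stood at 148 CPM in KO and 215 CPM in WT B cells; in WT, 10 of its 13 UMIs were in 1 cell. Foxp3 T cells, which are regulatory T cells by their gating gene, had the lowest Tcf7 of the T gates, 19.8 CPM in KO and 4.87 CPM in WT. Their Lef1 was also the lowest of the T gates, 86.2 CPM in KO and 39.9 CPM in WT. Satb1, a chromatin organiser of developing and resting T cells, was highest in CD4 T cells in KO (1166 CPM) and in NK cells in WT (896 CPM). S1pr1 was near the bottom of the scale in NK cells, with 6 KO and 15 WT UMIs.

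**Figure D1:**
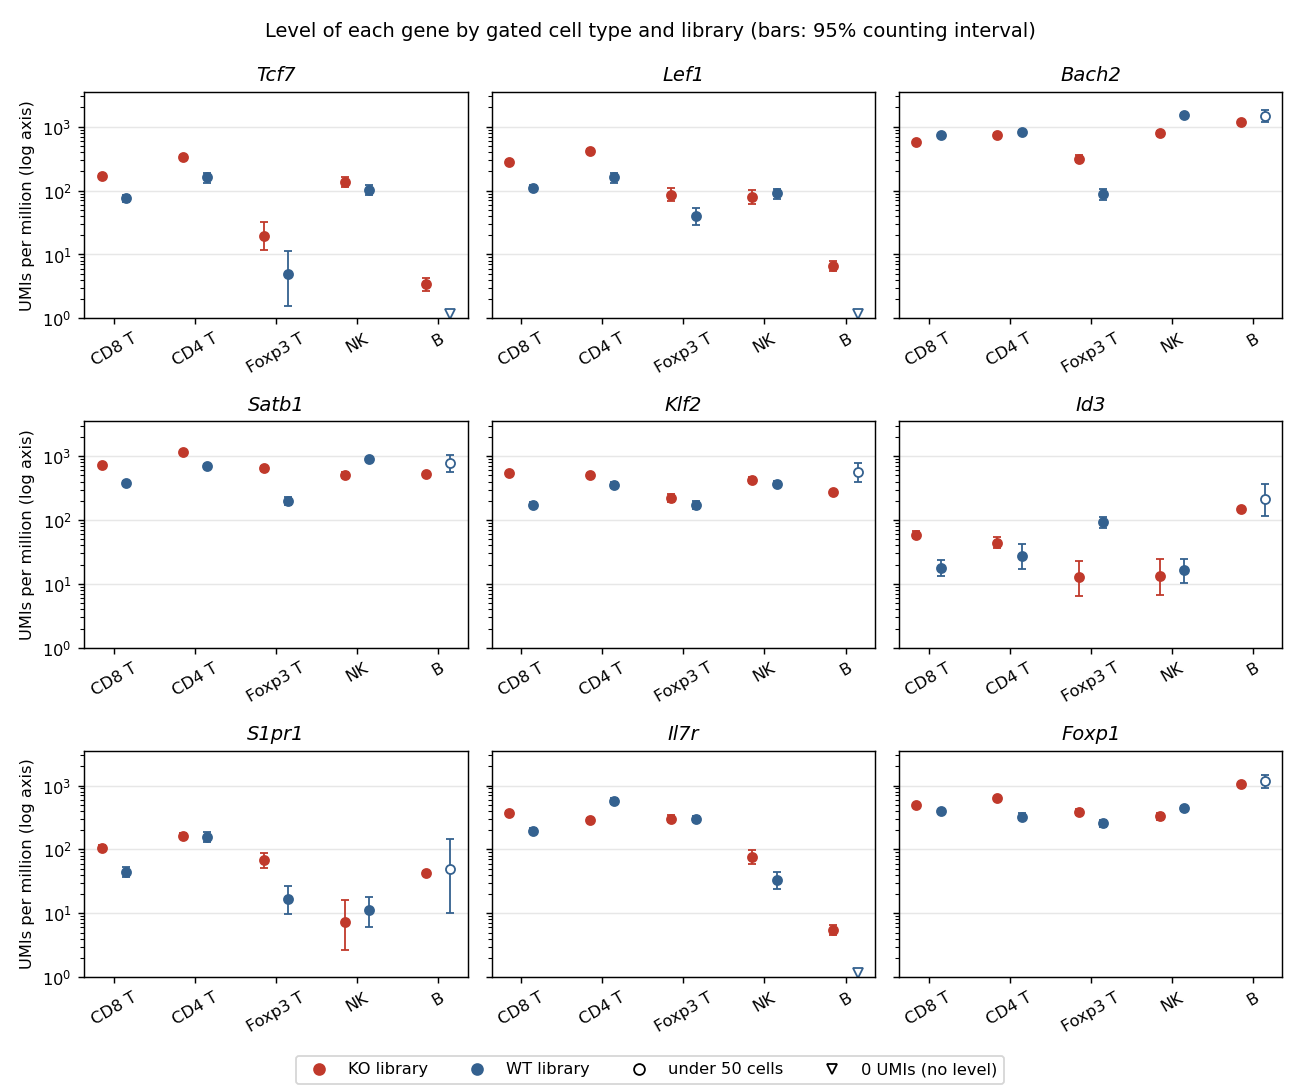
Level of each of the 9 genes in CPM (log axis) in the CD8 T, CD4 T, Foxp3 T, NK and B gates, KO in red and left of WT in blue, with 95% counting intervals; open circles rest on under 50 cells and triangles mark 0 UMIs. Tcf7, Lef1 and Il7r drop to under 10 CPM in KO B cells, while Bach2 and Foxp1 stay above 1000 CPM there.

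In CD8 T cells, 8 of the 9 genes stood higher in KO than in WT and Bach2 stood lower. At a mean of at least 10 CPM over both libraries, 5 of the 9 were at least 2-fold higher in KO and 0 were 2-fold lower. Over all 8111 genes at that level, 2.01% were at least 2-fold higher and 3.51% at least 2-fold lower, 5.52% in either direction. The median log2 difference was 1.17 over the 9 genes and -0.09 over all genes. UMIs of 10 B-cell markers were also higher in this KO gate, 54.8 CPM in sum against 5.28 CPM in WT; without the cells that carried B or dendritic marker UMIs, 7 of the 9 genes were at least 2-fold higher and 0 lower.

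Among the regulators, Tcf7 had 682 UMIs or 169.8 CPM (157 to 183) in KO and 214 UMIs or 75.3 CPM (65.6 to 86.1) in WT CD8 T cells, a log2 difference of 1.17 (0.95 to 1.40), and 0.99 with each cell thinned to 2000 UMIs. Lef1 stood at 283 CPM (267 to 300.3) in KO and 111 CPM (98.99 to 124) in WT, a log2 difference of 1.35 (1.17 to 1.54). In this gate the KO and WT intervals do not touch for any of the 9 genes, these partner genes included. How many of all genes have such intervals was not counted. Satb1 was 727 CPM in KO and 378 CPM in WT, just under 2-fold apart at log2 0.94 (0.84 to 1.05). Foxp1 was 496 CPM in KO and 397 CPM in WT, log2 0.32 (0.22 to 0.43). Bach2, which restrains effector differentiation, had the opposite sign, at 580.1 CPM (557 to 604) in KO and 741 CPM (709 to 773) in WT, log2 -0.35 (-0.44 to -0.27). Id3 had 59.0 CPM (51.7 to 67.0) in KO and 18.0 CPM (13.4 to 23.6) in WT, and its log2 difference of 1.72 (1.27 to 2.18) was the largest of the 9 in this gate. It rested on few cells: 86 of 649 KO and 27 of 424 WT cells held an Id3 UMI. Leaving out the cell with most Id3 UMIs in each library gave log2 1.88 (1.37 to 2.42).

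The genes of trafficking and survival also stood higher in KO CD8 T cells. Klf2 was 543 CPM (520.2 to 566) in KO and 173 CPM (158 to 189) in WT, log2 1.65 (1.51 to 1.79), the most tightly bounded large difference. S1pr1, the sphingosine phosphate receptor that lets lymphocytes leave tissue, was 107 CPM (96.9 to 117) in KO and 44.4 CPM (37.0 to 52.8) in WT, log2 1.27 (0.98 to 1.57), and 0.97 with stricter gates. Il7r was 375 CPM (356 to 395) in KO and 197 CPM (181 to 214) in WT, log2 0.93 (0.79 to 1.07). For each of these 3 genes the KO interval lay wholly above the WT interval.

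In CD4 T cells the group split. Tcf7 and Lef1 were at least 2-fold higher in KO and Il7r was 2-fold lower, against a background of 4.25% of 8135 genes at least 2-fold higher and 6.21% at least 2-fold lower, 10.5% in either direction. Tcf7 stood at 337 CPM (315 to 361) in KO and 160.3 CPM (133 to 191) in WT, log2 1.07 (0.80 to 1.36), and 0.89 with cells that carried B or dendritic marker UMIs left out. Lef1 stood at 421.5 CPM (397 to 448) in KO and 160.3 CPM (133 to 191) in WT, log2 1.39 (1.13 to 1.68), and 0.80 with stricter gates. Il7r was 286 CPM (266 to 308) in KO and 573 CPM (521 to 629) in WT, log2 -1.001 (-1.17 to -0.83), opposite in sign to its CD8 difference. This is at the 2-fold line: over the alternative settings it ran from -1.32 to -0.80, and under 7 settings that left the fold unchanged it was within 2-fold. Marker RNA of other types differed in both directions in this gate. Type 2 innate lymphoid markers summed to 668 CPM in KO and 1254 CPM in WT (4 of 5 lower, Il13 higher). NK markers summed to 222 CPM in KO and 675 CPM in WT (7 of 8 lower). Gamma-delta T markers summed to 79.6 CPM in KO and 153 CPM in WT (2 of 4 lower). Fibroblast markers summed to 76.4 CPM in KO and 240.4 CPM in WT (4 of 4 lower), and macrophage markers to 190 and 402 CPM. Sums were higher in KO for dendritic (61.7 CPM against 44.0 CPM in WT), tumour or epithelial (89.4 against 53.0 CPM), B (42.3 against 9.05 CPM), plasma (158 against 140 CPM) and neutrophil markers (5.54 against 3.88 CPM). Their part in the Il7r difference was not tested. Foxp1 was 641 CPM in KO and 326 CPM in WT, log2 0.98 (0.78 to 1.17). Satb1 was 1166 CPM in KO and 699 CPM in WT, log2 0.74 (0.60 to 0.87). Klf2, S1pr1 and Bach2 were closer together. Klf2 was 513 CPM in KO and 354 CPM in WT, log2 0.54 (0.35 to 0.73), and S1pr1 was 164 CPM in KO and 155 CPM in WT, log2 0.08 (-0.21 to 0.39). Bach2 was 754 CPM in KO and 829 CPM in WT, log2 -0.14 (-0.27 to -0.004). Id3 had 112 UMIs in KO and 21 in WT, of which 15 were in 1 WT cell; its log2 difference was 0.71 (0.03 to 1.45) with that cell and 2.30 (1.13 to 3.78) without the top cell of each library. The median over the 9 genes was 0.71 and over all genes -0.06.

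In Foxp3 T cells, 5 of the 9 genes were at least 2-fold higher in KO and 1, Id3, at least 2-fold lower. Over all 8250 genes, 3.59% were 2-fold higher and 6.17% 2-fold lower, 9.76% in either direction. Bach2, which supports regulatory T-cell development in the mouse, was 315 CPM (278 to 354) in KO and 87.6 CPM (70.4 to 108) in WT, log2 1.84 (1.496 to 2.21), while it was lower in KO in the CD8 T, CD4 T and NK gates. Satb1 was 648 CPM (595 to 704) in KO and 199 CPM (173 to 229) in WT, log2 1.70 (1.47 to 1.94). S1pr1 had 58 UMIs or 67.6 CPM in KO and 17 UMIs or 16.5 CPM in WT, log2 2.03 (1.23 to 2.90). These 3 genes had intervals apart from those of WT, and so did Foxp1, Lef1, Id3 and, narrowly, Tcf7. How many of all genes have such intervals was not counted. Lef1 was 86.2 CPM in KO and 39.9 CPM in WT, log2 1.11 (0.54 to 1.70), but with each cell thinned to 2000 UMIs the log2 was 0.13, and a Lef1 UMI was then found in 8.80% of KO and 9.45% of WT cells. Tcf7 rested on 17 KO and 5 WT UMIs, so its log2 of 2.03 is wide (0.53 to 3.82). Foxp1 was 390.3 CPM in KO and 255 CPM in WT, log2 0.61 (0.38 to 0.85). Klf2 was 221 CPM in KO and 174 CPM in WT, log2 0.35 (0.04 to 0.65), and Il7r was 304 CPM in KO and 298 CPM in WT, log2 0.03 (-0.21 to 0.27). Id3 had 11 UMIs in KO and 95 in WT, but 63 of the 95 came from 1 WT cell. Its log2 was -2.85 with all cells and -1.59 (-2.85 to -0.49) without the top cell of each library. With a set share of cells left out by highest doublet score, the Id3 log2 was 1.31. The median was 1.11 over the 9 genes and -0.06 over all genes.

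In NK cells, Il7r alone of the 8 genes that reached a mean of 10 CPM was at least 2-fold higher in KO, and 0 were 2-fold lower. Over all 8045 genes, 3.54% were 2-fold higher and 6.45% 2-fold lower, 9.99% in either direction. The count of 1 in 8 is close to that share over all genes. Il7r was 77.4 CPM (59.5 to 99.02) in KO and 33.2 CPM (24.2 to 44.4) in WT, log2 1.22 (0.65 to 1.81), from 63 and 45 UMIs. Bach2 was 787 CPM (728 to 851) in KO and 1547 CPM (1481 to 1615) in WT, log2 -0.97 (-1.10 to -0.85). Satb1 was 509.8 CPM (462 to 561) in KO and 896 CPM (846 to 948) in WT, log2 -0.81 (-0.98 to -0.65). Foxp1 was 328 CPM in KO and 441 CPM in WT, log2 -0.43 (-0.64 to -0.22). These 3 regulators, all lower in KO, had intervals apart from those of WT, as did Il7r, which was higher in KO. Tcf7 was 138 CPM in KO and 102 CPM in WT, log2 0.43 (0.06 to 0.80). Klf2 was 430.0 CPM in KO and 370 CPM in WT, log2 0.22 (0.02 to 0.42), but 48 of its 350 KO UMIs were in 1 cell. Without the top cell of each library the Klf2 log2 was 0.12 (-0.10 to 0.33), and with stricter gates it was -0.585. The intervals of Lef1 (log2 -0.17), Id3 (-0.26) and S1pr1 (-0.59) included 0. The median over the 8 genes was -0.22 and over all genes -0.09. Fibroblast marker UMIs differed in this gate, with a summed 36.9 CPM in KO and 720.3 CPM in WT over 4 of 4 genes, and their part in these differences was not tested.

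**Figure D2:**
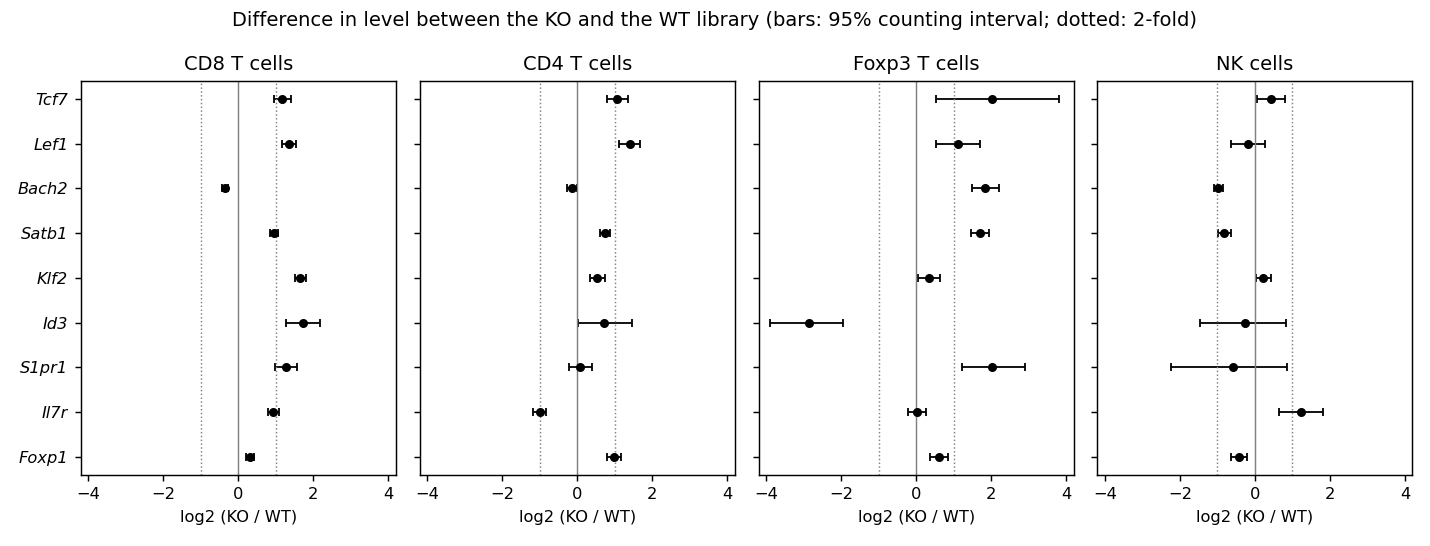
Log2 of the KO level over the WT level of each of the 9 genes in CD8 T, CD4 T, Foxp3 T and NK cells, with 95% counting intervals and dotted lines at 2-fold. Tcf7 lies right of 0 in all 4 gates, at 1.17, 1.07, 2.03 and 0.43, while Bach2 lies right of 0 only in Foxp3 T cells, at 1.84.

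With 10 WT B cells, B-cell levels are given side by side only. Klf2 was 275 CPM in KO and 563 CPM in WT, from 34 WT UMIs. Satb1 was 517 CPM in KO and 778 CPM in WT, from 47 WT UMIs. Within KO B cells, the 1556 cells with a UMI of Ccr7, a chemokine receptor of lymph node homing, had more of several of the 9 genes than the 1446 cells without. Satb1 stood at 857 CPM in cells with and 226 CPM in cells without, log2 1.93 (1.86 to 1.99). S1pr1 stood at 64.9 CPM with and 23.4 CPM without, and Foxp1 at 1579 CPM with and 628 CPM without. Id3 was lower in the cells with a Ccr7 UMI, 94.3 CPM against 194 CPM without, and Bach2 was alike at 1166 CPM with and 1203 CPM without.

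The same split, which was chosen after the data were seen, was made in T cells. Ccr7 takes resting lymphocytes into lymph nodes and is not among the 9. A larger part of KO than of WT cells carried a Ccr7 UMI: 44.4% (40.5 to 48.3) of KO and 24.8% (20.7 to 29.2) of WT CD8 T cells, 54.8% of KO and 28.5% of WT CD4 T cells, and 54.7% of KO and 35.9% of WT Foxp3 T cells. The Ccr7 level in CD8 T cells was less far apart, 425 CPM in KO and 337 CPM in WT, log2 0.34 (0.22 to 0.45). Its log2 was 0.82 in CD4 T cells and 1.44 in Foxp3 T cells. With each cell thinned to 2000 UMIs, which leaves out 68 KO and 5 WT CD8 T cells, the CD8 shares were 34.8% in KO and 16.5% in WT. In macrophages the thinned shares were 4.19% in KO and 1.93% in WT. The shares of NK cells differed less, 10.9% in KO and 13.9% in WT without thinning. Their Ccr7 level was lower in KO, 33.2 CPM against 72.3 CPM in WT, log2 -1.12 (-1.80 to -0.50), from 27 KO and 98 WT UMIs. The split is by detection, so cells with few UMIs fall more often on the side without: in CD8 T cells the median depth was 5912 UMIs with and 4590 without in KO, and 6786 with and 5331 without in WT.

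Among CD8 T cells with a Ccr7 UMI (288 KO, 105 WT), Klf2 stood at 827 CPM in KO and 171 CPM in WT, log2 2.28 (2.03 to 2.53). Lef1 was 399 CPM in KO and 137 CPM in WT, log2 1.54 (1.26 to 1.83). Satb1 was 998 CPM in KO and 439.6 CPM in WT, log2 1.18 (1.02 to 1.35). Among cells without such a UMI (361 KO, 319 WT) these 3 genes were closer, with log2 0.54 (0.34 to 0.74) for Klf2, 0.72 (0.46 to 0.98) for Lef1 and 0.35 (0.21 to 0.496) for Satb1. Il7r showed the reverse order. It was 309 CPM in KO and 238 CPM in WT with a Ccr7 UMI, log2 0.38 (0.15 to 0.61), and Il7r was 443 CPM in KO and 179.7 CPM in WT without, log2 1.30 (1.12 to 1.48). Bach2 was lower in KO on both sides, log2 -0.28 (-0.40 to -0.15) with and -0.90 (-1.03 to -0.76) without. Tcf7 was higher in KO by about as much on either side, log2 0.86 (0.56 to 1.17) with and 0.90 (0.55 to 1.26) without, both smaller than over the whole gate. Weighting the KO cells to the WT mix of cells with and without such a UMI gave log2 0.88 for Tcf7, 1.08 for Lef1 and 1.29 for Klf2.

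In CD4 T cells the side with a Ccr7 UMI (239 KO, 43 WT) again held the larger differences of Lef1 and Satb1. Lef1 was 554 CPM in KO and 129 CPM in WT, log2 2.11 (1.62 to 2.64), and on the other side (197 KO, 108 WT) Lef1 was 231 CPM in KO and 177 CPM in WT, log2 0.38 (0.03 to 0.75). Satb1 had log2 1.33 (1.09 to 1.58) with and 0.11 (-0.06 to 0.29) without. S1pr1 had log2 0.36 (-0.09 to 0.84) with and -0.65 (-1.10 to -0.20) without, so its near-equal level over the whole gate joined unlike sides. Il7r was lower in KO on both sides, log2 -1.33 (-1.58 to -1.07) with and -0.74 (-0.98 to -0.496) without. In Foxp3 T cells Satb1 and S1pr1 were higher in KO on either side. Satb1 had log2 1.82 with and 1.43 without. S1pr1 had log2 2.26 with, from 33 KO and 6 WT UMIs, and 1.996 without, from 25 KO and 11 WT UMIs. Whether the differences between the sides exceed the spread between animals was not tested.

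**Figure D3:**
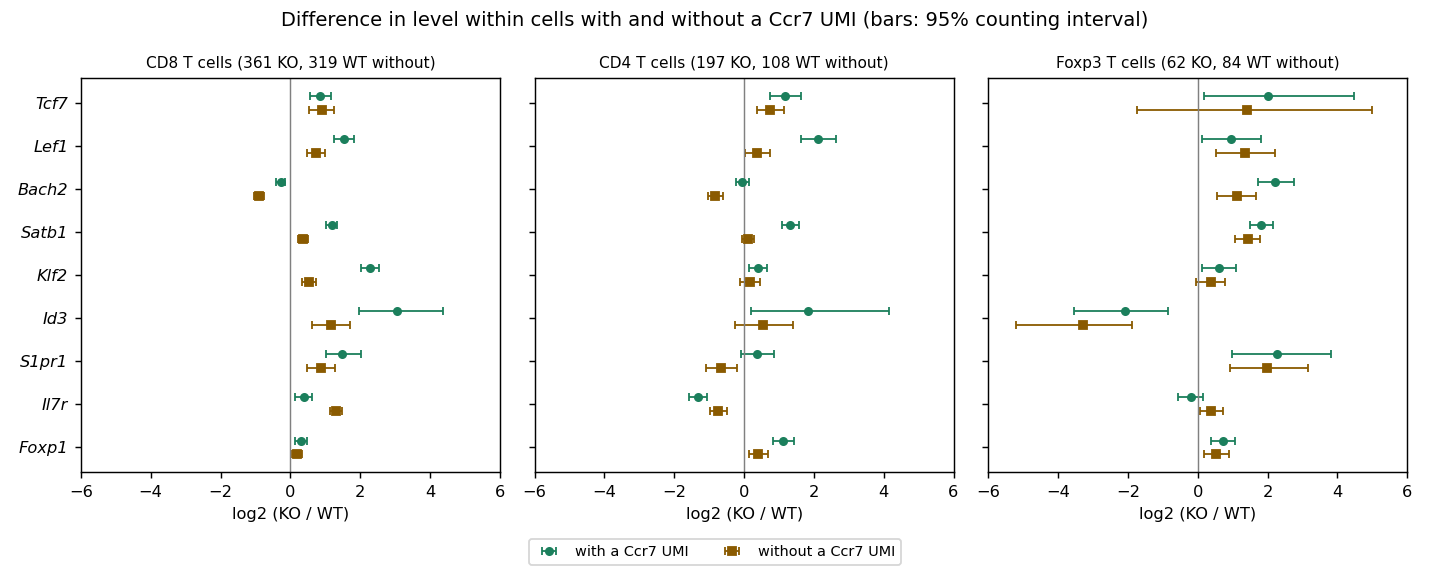
Log2 of the KO level over the WT level of each gene in CD8 T, CD4 T and Foxp3 T cells with (circles) and without (squares) a Ccr7 UMI, with 95% counting intervals. Klf2 in CD8 T cells is at 2.28 with and 0.54 without, while Tcf7 there lies close together at 0.86 with and 0.90 without.

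Cells with and without a Ccr7 UMI were also set against each other within 1 library. In KO CD8 T cells, Klf2 stood at 827 CPM with and 252 CPM without, 3.28-fold apart. In WT CD8 T cells it stood at 171 CPM with and 174 CPM without, log2 -0.02 (-0.32 to 0.26). Tcf7 was higher with Ccr7 in both libraries, 2.55-fold higher with than without in KO and 2.63-fold in WT. Bach2 was 2.36-fold higher with than without in KO and 1.53-fold in WT. Il7r in CD8 T cells was lower with than without in KO, log2 -0.52 (-0.67 to -0.37), and higher in WT, log2 0.40 (0.15 to 0.66). In CD4 T cells Lef1 was 2.39-fold higher with than without in KO, against log2 -0.46 (-1.07 to 0.11) in WT. Satb1 in CD4 T cells was 1.66-fold higher with than without in KO, and lower with than without in WT, log2 -0.49 (-0.77 to -0.21). Pdcd1 (PD-1, an inhibitory receptor of activated and exhausted T cells) stood at 109 CPM with and 137 CPM without in KO CD8 T cells, and at 467 CPM with and 519 CPM without in WT. Markers of dendritic cells, which also express Ccr7, summed to 98.5 CPM with and 55.4 CPM without in KO CD8 T cells, and to 96.8 CPM with and 29.5 CPM without in WT, and their part was not tested.

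**Figure D4:**
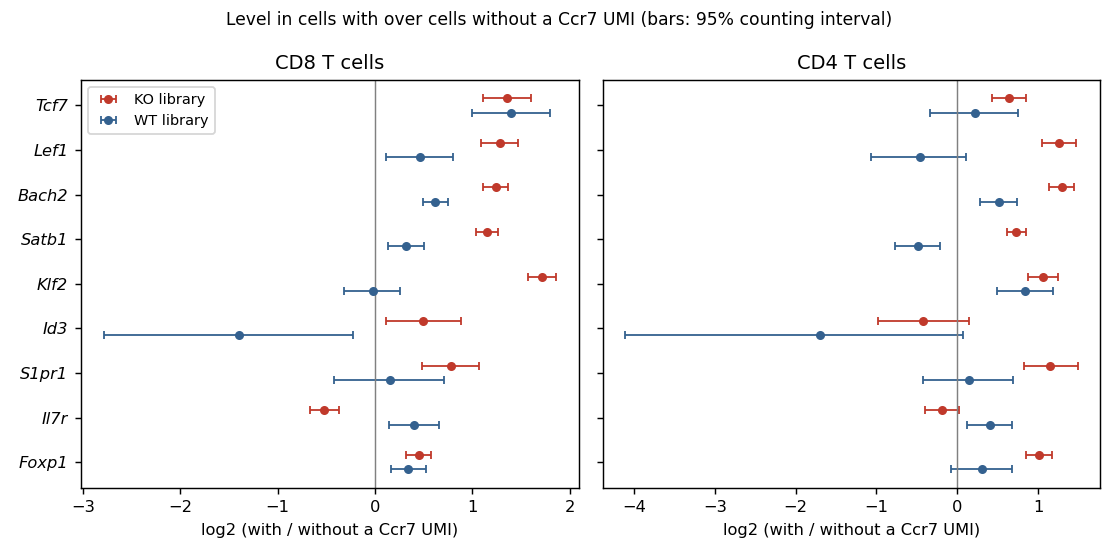
Log2 of the level in cells with over cells without a Ccr7 UMI, for each gene within the KO (red) and the WT (blue) library, with 95% counting intervals, in CD8 T cells (left) and CD4 T cells (right). Klf2 in CD8 T cells is at 1.71 in KO and -0.02 in WT, while Tcf7 lies close together at 1.35 in KO and 1.39 in WT.

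A Pdcd1 UMI was found in 24.7% (21.4 to 28.2) of KO and 71.9% (67.4 to 76.2) of WT CD8 T cells. Within the cells without one (489 KO, 119 WT), Tcf7 was 223 CPM in KO and 182 CPM in WT, log2 0.29 (0.01 to 0.58), and Lef1 381 CPM in KO and 277 CPM in WT, log2 0.46 (0.24 to 0.69). Both are smaller than over the whole gate. Klf2 had the largest difference there, 723 CPM in KO and 318 CPM in WT, log2 1.18 (0.98 to 1.39). Within the cells with a Pdcd1 UMI (160 KO, 305 WT), Bach2 was 272 CPM in KO and 704 CPM in WT, log2 -1.37 (-1.54 to -1.21). Its difference in cells without was smaller, log2 -0.23 (-0.36 to -0.09). Satb1 with a Pdcd1 UMI was 295 CPM in KO and 297 CPM in WT, log2 -0.01 (-0.20 to 0.17). Id3 was 64.0 CPM in KO and 13.0 CPM in WT among cells with a Pdcd1 UMI, log2 2.30 (1.67 to 2.97), and 56.5 CPM in KO and 33.7 CPM in WT among those without, log2 0.75 (0.11 to 1.45).

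Crossing both splits, again chosen after the data were seen, gave 4 kinds of CD8 T cell. In cells with a Ccr7 UMI and no Pdcd1 UMI (231 KO, 37 WT), Tcf7 was 307 CPM in KO and 287 CPM in WT, log2 0.10 (-0.28 to 0.497). Klf2 there was 1074 CPM in KO and 437 CPM in WT, log2 1.30 (1.002 to 1.60). In cells with neither UMI (258 KO, 82 WT), Tcf7, Lef1, Satb1, Klf2, Id3, S1pr1 and Foxp1 had intervals that included 0, while Il7r was 513 CPM in KO and 268 CPM in WT, log2 0.94 (0.66 to 1.23). Bach2 was 379 CPM in KO and 757 CPM in WT in those cells, log2 -0.998 (-1.20 to -0.79). Bach2 was also lower in KO in cells with a Pdcd1 UMI alone, log2 -1.08 (-1.30 to -0.87), and in cells with both UMIs (57 KO, 68 WT), log2 -1.92 (-2.19 to -1.65). In cells with a Ccr7 UMI alone its levels were close, log2 -0.03 (-0.23 to 0.17). In the CD4 gate the Il7r difference was larger in cells with a Pdcd1 UMI, 101 CPM in 73 KO and 581 CPM in 52 WT cells, log2 -2.53 (-2.99 to -2.09), than in those without, log2 -0.74 (-0.94 to -0.53).

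The share of CD8 T cells with a UMI was larger in KO than in WT for 8 of the 9 genes, all but Bach2. For Foxp1 the shares were close, 75.7% (72.2 to 78.9) in KO and 71.5% (66.9 to 75.7) in WT. How many of all genes had a larger share in KO was not counted. With each cell thinned to 2000 UMIs, Tcf7 was found in 26.3% (22.8 to 30.1) of 581 KO and 13.6% (10.5 to 17.3) of 419 WT CD8 T cells. Klf2 was found in 46.3% of KO and 20.05% of WT cells, S1pr1 in 21.2% of KO and 7.88% of WT cells, and Il7r in 46.0% of KO and 26.5% of WT cells. Without thinning the Tcf7 shares were 42.4% in KO and 23.3% in WT, and the Klf2 shares 58.1% in KO and 35.6% in WT. As a background of free RNA, Tcf7 was in 0.684% of thinned KO and 0.184% of thinned WT macrophages, cells that should lack it, at median depths of 7782 and 9217.5 UMIs before thinning. Macrophages were gated to hold no Cd3 UMI, which leaves out most doublets with T cells. These shares therefore do not measure doublets and may be too low as a background. Tcf7 and Lef1 were above that background in the T and NK gates of both libraries, except Tcf7 in WT Foxp3 T cells. In KO B cells Tcf7 was in 0.591% of thinned cells, about as in KO macrophages. Macrophages themselves carry Klf2 (246 CPM in KO and 227 CPM in WT), Il7r (138 and 164 CPM in KO and WT) and Foxp1 (254 and 376 CPM in KO and WT), so for these genes they set no background. In Foxp3 T cells thinned Tcf7 was in 6.40% of KO and 0% of 127 WT cells, and 0 of 127 allows a share of up to 2.86%.

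More KO than WT CD8 T cells held several of the 9 genes at once. Most of the genes were each found in a larger share of KO cells, so a higher number per cell need not mean a closer link between genes. At 2000 UMIs per cell, 33.6% (29.7 to 37.6) of KO and 10.3% (7.53 to 13.6) of WT CD8 T cells had UMIs of at least 5 of the 9 genes. In CD4 T cells the shares were 44.0% (39.0 to 49.0) in KO and 26.2% (19.2 to 34.3) in WT. In Foxp3 T cells the shares were 5.60% (2.28 to 11.2) in KO and 2.36% (0.49 to 6.75) in WT, from 7 KO and 3 WT cells, while cells with at most 1 of the 9 genes made up 29.6% (21.8 to 38.4) of KO and 45.7% (36.8 to 54.7) of WT. In NK cells the shares with at least 5 were 13.0% in KO and 10.1% in WT. In macrophages they were 0.256% in KO and 0.0690% in WT. CD8 T cells with a Tcf7 UMI had each of the other 8 genes more often than those without, in both libraries. How many of all genes do so was not counted, and for Id3 in WT the shares were low, 3.51% with and 1.93% without. Other gates did not all follow: in WT CD4 T cells Il7r was in 55.9% with Tcf7 and 60.7% without. Lef1 was found in 52.3% of the 153 KO CD8 T cells with Tcf7 against 30.8% of those without, and in 35.1% of the 57 WT cells with Tcf7 against 16.02% of those without. Il7r followed Tcf7 in WT CD8 T cells, 54.4% with against 22.1% without, and less in KO, 49.7% with against 44.6% without.

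**Figure D5:**
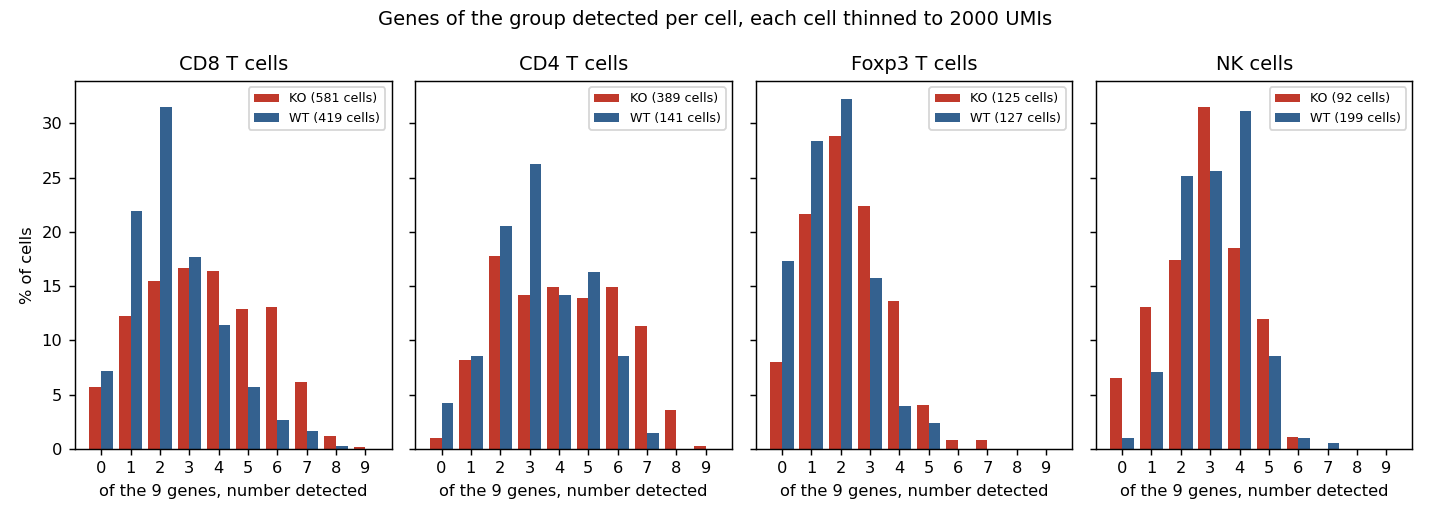
Percent of cells (vertical axis) by the number of the 9 genes with a UMI (horizontal axis) after thinning to 2000 UMIs, KO in red and WT in blue, in CD8 T, CD4 T, Foxp3 T and NK cells. In CD8 T cells the WT bars peak at 2 genes with 31.5% of cells, while 33.6% of KO cells have at least 5.

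Other genes of the same pathways were counted by list, taking all genes of a list at a mean of at least 10 CPM. Of 19 genes of resting homing and quiescence, 13 were higher and 6 lower in KO CD8 T cells, 5 were at least 2-fold higher and 0 at least 2-fold lower, with a median log2 of 0.76. Over all genes in this gate, 2.01% were at least 2-fold higher and 3.51% lower, with a median of -0.09. Rasgrp2, a guanine exchange factor of integrin activation, was 74.4 CPM in KO and 20.4 CPM in WT, log2 1.87 (1.46 to 2.30). Of 19 effector and exhaustion genes, 17 were lower, 8 at least 2-fold, with a median of -0.92. Pdcd1 was 123 CPM in KO and 504 CPM in WT, log2 -2.04 (-2.19 to -1.89), and Zeb2, a transcriptional repressor that promotes terminal effector differentiation, 103 CPM in KO and 318 CPM in WT, log2 -1.63 (-1.80 to -1.46). Gzmb, a killing enzyme, was among the 2 higher ones at 1075 CPM in KO and 755 CPM in WT. In CD4 T cells 8 of 19 resting genes were at least 2-fold higher and 0 lower, with a median of 0.797, and 9 of 20 effector genes at least 2-fold lower and 1, Batf, higher, with a median of -0.97, beside 4.25% of all genes higher and 6.21% lower. In NK cells the resting list leaned the other way, with 13 of 14 lower and a median of -0.45, against -0.09 over all genes.

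Lists of the direct partners of the 9 genes were counted in CD8 T cells in the same way, where 5.52% of all genes were past 2-fold in either direction. Of 11 genes of interleukin 7 signalling, 5 stood higher in KO and 6 lower (median log2 -0.05), beside the higher Il7r itself. Il2rg, the shared receptor chain, was 345 CPM in KO and 307 CPM in WT, and the kinase gene Jak1 451 CPM in KO and 445 CPM in WT. The kinase gene Jak3 was lower in KO, 17.7 CPM against 27.5 CPM in WT, log2 -0.64 (-1.12 to -0.15). Socs1, an inhibitor of cytokine signalling, was the 1 gene past 2-fold, 153 CPM in KO and 65.8 CPM in WT, log2 1.22 (0.98 to 1.46). Foxo1, which drives Klf2 and Il7r in resting T cells, was lower in KO CD8 T cells, 173 CPM in KO and 261 CPM in WT, log2 -0.60 (-0.75 to -0.45). Of the 5 measured TCF and LEF partners 0 were past 2-fold, with a median of -0.07. Ctnnb1 (beta-catenin) was 49.3 CPM in KO and 67.6 CPM in WT, log2 -0.46 (-0.75 to -0.16). Of 6 measured genes of sphingosine phosphate egress, 2 were higher and 4 lower. Cd69, which holds S1pr1 inside the cell, was 315 CPM in KO and 223 CPM in WT, log2 0.50 (0.36 to 0.64), higher together with S1pr1. Id2, the Id3 paralog of effector cells, was 912 CPM in KO and 926 CPM in WT, log2 -0.02 (-0.09 to 0.05). It is 1 of 4 measured E and Id proteins, of which Tcf4 was past 2-fold, at 23.4 CPM in KO and 11.3 CPM in WT. Of 8 genes that act with or under Bach2, 6 stood higher and Hmox1, haem oxygenase, was past 2-fold, at 23.2 CPM in KO and 10.2 CPM in WT. Prdm1 (Blimp-1, a driver of effector differentiation) was 9.46 CPM in KO and 18.7 CPM in WT, log2 -0.98 (-1.62 to -0.35).

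Across the 9 gate and library levels that rest on at least 50 cells, Tcf7 and Lef1 were most alike among the 36 pairs of the group, with Pearson r = 0.88 of log2(CPM + 1). Satb1 with Klf2 followed at 0.77 and Lef1 with Il7r at 0.76, while Il7r with Foxp1 stood at -0.64. Among 4870 other genes, those with the pattern most like Tcf7 were Pdcd4, Mfsd6 and Zc3h13 (r from 0.94 to 0.95), and most like Lef1 were Tpt1, Prkcq and Saraf (r from 0.93 to 0.97). Lmbr1l, Mcl1 and Desi2 were most like S1pr1 (r from 0.94 to 0.96), and Egln1, Klk8 and Lat most like Il7r (0.96 for each). Fdx2, Btg2 and Atp6ap1 were most like Bach2, Pou6f1, Sesn3 and Il16 most like Satb1, and Wdr43, Nol8 and Vapa most like Foxp1. Klf2 had Mrpl30, Pdlim1 and Ing3, and Id3 had Dbi, Rftn1 and Luc7l3. These correlations are a description: the 9 levels share 2 libraries, and genes were picked as the best of 4870.

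RNA of other cell types differed between the libraries in the T gates. Summed over 10 B markers, the level in CD8 T cells was 54.8 CPM in KO, with 0 of the markers at 0, and 5.28 CPM in WT, with 4 at 0, and all 10 were higher in KO. The same sum was 42.3 CPM in KO and 9.05 CPM in WT CD4 T cells, and 65.2 CPM in KO and 1.95 CPM in WT Foxp3 T cells. Macrophage markers were lower in KO, 221 CPM against 386 CPM in WT CD8 T cells. The B-marker sum in KO CD8 T cells is 1.42% of the level in KO B cells, and that share of B-cell RNA would bring 16.8 of the 580.1 CPM of Bach2, 15.1 of the 496 CPM of Foxp1 and under 0.1 CPM of Tcf7. Leaving out every cell with a UMI of selected B or dendritic markers, a choice made after the data were seen, removed 142 of 649 KO and 51 of 424 WT CD8 T cells and gave log2 1.39 for Tcf7, 1.53 for Lef1 and -0.17 for Bach2.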

How the data were processed

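Single-cell 3' RNA libraries (10x v3.1, per the labels' protocols) of tumour-infiltrating lymphocytes were deposited by the authors as matrices of raw counts, whole UMIs per gene and cell barcode. The submitters' processing notes list the build mm10, Seurat (versions 4.0.4 and 4.0.3) and Cell Ranger 6.0.1; per the file headers it was Cell Ranger 8.0.1. Neither names an annotation release or a strand setting.

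Of the deposited barcodes, those under 200 genes or over 20% mitochondrial UMIs were dropped, which left 12636 KO and 9765 WT cells. T cells had at least 2 UMIs of Cd3d, Cd3e and Cd3g together, and a sum of at most 1 UMI of B (Cd79a, Ms4a1) and of myeloid genes (Csf1r and Adgre1 among them). CD8 T cells had at least 2 Cd8a and Cd8b1 UMIs and no Cd4 or Foxp3; CD4 T cells had Cd4 without Cd8 or Foxp3; Foxp3 T cells had Foxp3 without Cd8. NK cells had Ncr1, at least 2 UMIs of Ncr1, Klrb1c and Klre1, and at most 1 Cd3 UMI. B cells had Cd79a and Ms4a1 and at least 3 B UMIs. Macrophages, set beside shares of cells, had at least 3 myeloid UMIs and no Cd3, Cd79a or Ms4a1 UMI.

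UMIs were summed per gate and library and scaled to CPM. No test was run, since each genotype is 1 library, and intervals cover counting error only. The ratio interval was tested on simulated data. A gene with 0 UMIs was given a floor of 3. Genes counted as past 2-fold needed a mean of 10 CPM, and gates under 50 cells gave levels only. Cells were thinned to 2000 UMIs for shares. Doublets stayed in: Scrublet's automatic threshold (scanpy 1.11.5) called 0 KO and 141 WT cells (1.44%), so an alternative left out the highest scores at 0.8% per 1000 cells, 1277 KO (10.1%) and 763 WT (7.81%). A planned split of the cells, the alternative built on it and 1 gene of the resting list are not reported here. All 9 genes are named in every gate; other named genes come from lists, or are the 3 highest correlations among genes with a mean of 30 CPM. The genes, lists and gates were chosen with earlier results of these data known. The gamma-delta T list lacks Cd163l1 and Tcrg-C1, which no symbol matched. Versions were Python 3.11.15, numpy 2.4.6, scipy 1.17.1 and pandas 2.3.3.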

Additional observations from a re-analysis of the deposited data

Results flagged for a closer look

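For 5 of the 9 genes the difference between KO and WT had opposite signs in different gates, with counting intervals on either side of 0. The gates named are those with the largest difference in each direction. How many of all genes show such opposite signs was not counted, so it cannot be said to be particular to these genes. With 1 library per genotype these contrasts between gates were not tested. Bach2 had a log2 of 1.84 in Foxp3 T cells and -0.97 in NK cells, 2.82 apart. Satb1 had 1.70 in Foxp3 T cells and -0.81 in NK cells, 2.51 apart. Id3 had 1.72 in CD8 T cells and -2.85 in Foxp3 T cells, 4.57 apart, and 63 of the 95 WT UMIs behind the second value came from 1 cell. Il7r had 1.22 in NK cells and -1.001 in CD4 T cells, 2.22 apart. Foxp1 had 0.98 in CD4 T cells and -0.43 in NK cells, 1.41 apart (1.405 before rounding).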

How the results depend on the processing

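No paired analysis was possible because each genotype is 1 library, and no replicate could be left out. The 15 differences past 2-fold gave 179 values under the alternatives: 178 kept their sign and 159 stayed within the counting interval. The exception was Id3 in Foxp3 T cells, at 1.31 with the highest Scrublet scores left out. The other 21 differences kept their sign in 237 of 252 values. In CD8 T cells, 5 genes were 2-fold higher and 2 were 3-fold higher. Of the 5, Tcf7 was within 2-fold after thinning (0.99) and with the WT mix of cells with a Ccr7 UMI (0.88), and S1pr1 with stricter gates (0.97). Satb1 passed 2-fold under 4 settings (1.02 to 1.05) and Il7r under 6 (1.02 to 1.08), median-of-ratios scaling among both. In CD4 T cells, 2 genes were 2-fold higher; the count was 4 with each cell weighted alike, 4 after thinning, 1 with the KO mix of cells with a Ccr7 UMI set to that of WT (chosen after the data were seen), 5 at 1.5-fold and 0 at 3-fold. The 1 gene lower there, Il7r, gave a count of 0 with Scrublet scores left out, median-of-ratios scaling, a total without mitochondrial, ribosomal, Ig and haemoglobin UMIs, each cell weighted alike, thinning, the WT mix, B or dendritic marker cells left out (chosen after the data were seen) and 3-fold. The 2 genes themselves fell within 2-fold in places: Lef1 with stricter gates (0.80), and Tcf7 with the WT mix (0.92) and with B or dendritic marker cells left out (0.89). Foxp1 passed 2-fold under 5 settings (1.02 to 1.12) and Id3 under 4 (1.35 to 3.20). Among Foxp3 T cells Lef1 was within 2-fold after thinning (0.13), with each cell weighted alike (0.91) and with no exclusion of B and myeloid markers (0.99). The count of lower genes there was 1, and 0 with Scrublet scores left out. In NK cells the count of higher genes was 1, and 0 at 3-fold; the count of lower genes was 0, and 1 with stricter gates, 1 with Scrublet scores left out and 2 at 1.5-fold. Beyond the construction of each alternative, the cause was not tested. Median-of-ratios scaling shifts every log2 value in CD4 T cells by 0.11, and by less in the other gates. Depth limits Tcf7 in Foxp3 T cells (17 KO and 5 WT UMIs), Id3 and S1pr1 in NK cells, and every WT B-cell level.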

Other observations

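Beyond the 9 genes, the lists of related genes differed by gate. In KO CD4 T cells the chemokine gene Ccl5 was 93.0 CPM against 460.2 CPM in WT, log2 -2.31 (-2.55 to -2.07), and Nkg7, a cytotoxic granule gene, 49.9 CPM in KO against 216 CPM in WT, log2 -2.11 (-2.46 to -1.77). Batf, a transcription factor of activated T cells, was 281 CPM in KO and 85.3 CPM in WT CD4 T cells, log2 1.72 (1.35 to 2.10), and Bcl2, a survival gene downstream of interleukin 7, was 106 CPM in KO and 191 CPM in WT, log2 -0.85 (-1.15 to -0.55). In Foxp3 T cells 7 of 16 measured resting genes were at least 2-fold higher in KO and 1, Igfbp4, at least 2-fold lower, at 20.97 CPM in KO and 363 CPM in WT, while in CD8 T cells Igfbp4 was 166 CPM in KO and 36.3 CPM in WT. Over all genes in Foxp3 T cells, 3.59% were at least 2-fold higher and 6.17% lower. Fibroblast markers summed to 15.1 CPM in KO and 241 CPM in WT Foxp3 T cells (4 of 4 lower) and tumour or epithelial markers to 44.3 CPM in KO and 129 CPM in WT (3 of 4 lower), and their part in the Igfbp4 difference was not tested. Socs1 was at least 2-fold higher in KO in the CD8 T, CD4 T and Foxp3 T gates, at log2 1.22, 1.02 and 1.18. In NK cells it was 59.0 CPM in KO and 64.2 CPM in WT.

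Among paralogs of the 9 genes, 0 of 9 measured in CD8 T cells were past 2-fold, with a median log2 of -0.09. Klf3 was 54.5 CPM in KO and 31.3 CPM in WT, log2 0.80 (0.44 to 1.17), and Klf6 235 CPM in KO and 300.3 CPM in WT, log2 -0.36 (-0.49 to -0.22). In NK cells 8 of 9 measured paralogs were lower in KO, 2 of them at least 2-fold, with a median of -0.59. Over all genes in that gate 6.45% were at least 2-fold lower, with a median of -0.09, and fibroblast markers summed to 36.9 CPM in KO and 720.3 CPM in WT, whose part was not tested.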
